A study of Bos taurus with 16 samples.

Results

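HSPA1A was followed as the single row ENSBTAG00000025441, 1 of 27607 genes listed for whole blood of 16 crossbred beef steers. Of these genes, 21016 had at least 1 count in any steer, and 13265 passed the filter on low counts. The row was selected on its identifier, on its mean level of 2327 normalized counts over the 16 steers, and on its fold change, as a gene that the study counts among those separating its groups. Its level and its group difference were therefore known when it was chosen, and both are given as descriptions. There were 8 steers labelled high and 8 labelled low for residual feed intake (RFI), the feed an animal eats beyond or below what its weight and growth call for. All were fed the same high-forage ration, and each group was the extreme end of a larger herd. Blood of several collection days was composited for each steer before extraction, so 1 library is 1 animal and an average over days. RNA was prepared with depletion of ribosomal and globin RNA. The titles number the low-RFI steers from 1 to 8 with the prefix LFE and the high-RFI steers from 9 to 16 with the prefix HFE, and the labels do not spell these prefixes out.

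HSPA1A encodes the inducible cytosolic heat shock protein 70, a chaperone that holds unfolded stretches of other proteins and releases them in a cycle driven by ATP. J-domain proteins deliver its clients, and nucleotide exchange factors such as BAG and HSPH1 proteins reset it. The gene has a low basal level in most cells and is switched on by heat shock factor 1 (HSF1) when heat, oxidants or other agents unfold proteins. In cattle, HSP70 in blood leukocytes is widely used as a marker of heat stress.

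The length that the deposited FPKM carry for this row is 2474 bp. In the RefSeq gene table of ARS-UCD2.0, HSPA1A is also 2474 bp long, and it is the only 1 of 37063 genes there with this length. The match is not unique in the other direction, since 6 of the 21016 genes with a recoverable length in the deposited tables have 2474 bp. The RefSeq table pairs 0 of its genes with an Ensembl identifier, so the name rests on the identifier and this length. It gives HSPA1B as another name of the same gene and places HSPA1L, a relative of very similar sequence, next to it. How reads shared between such copies were counted is not stated in the methods, so the counts may include reads of close copies. For the same reason other chaperone and co-chaperone genes, and markers of blood cell types, could not be looked up by symbol and were not analysed here.

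Library depth lay between 4.80 and 12.2 M counts, with 8.15 ± 1.09 M (SD, n = 8) in high-RFI and 8.72 ± 2.23 M (SD, n = 8) in low-RFI steers. Directions are those of the sample labels, which do not go with the order of the study's table of sequenced reads. In listed order, total counts of the steers labelled low-RFI followed the reads of the libraries which that table names high-RFI (r = 0.940, p = 0.000248 by an exact permutation test over the 8 libraries; rho = 0.976, p = 0.000397 by the same). Total counts of the steers labelled high-RFI followed the libraries named low-RFI (r = 0.958, p = 7.44e-05 by the exact permutation test; rho = 0.976, p = 0.000397). Pairing libraries of the same name gave a Pearson r of -0.233 (Spearman rho = -0.214) in steers labelled high-RFI and r = -0.297 (rho = -0.190) in those labelled low-RFI, with two-sided exact permutation p of at least 0.472. Over the 8 coefficients of the 4 pairings, adjusted p was at most 0.000794 for exchanged names and 0.665 for same names. Without the 2 libraries farthest from the median reads, r was 0.907 and 0.871 with exchanged names. The sign of every difference between the groups below would turn if the names of that table applied. Slopes on HSPA1A and correlations with it would keep their sign.

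HSPA1A stood at one low level in 13 steers and far above it in 3, steers 14, 15 and 16, all labelled high-RFI. In the low-RFI group the normalized count was 930 in steer 1, 566 in steer 2, 711 in steer 3, 832 in steer 4, 534 in steer 5, 920 in steer 6, 655 in steer 7 and 686 in steer 8. All 8 lay within a 1.74-fold range. In the high-RFI group the normalized count was 734 in steer 9, 547 in steer 10, 675 in steer 11, 608 in steer 12 and 703 in steer 13, each inside the range of the low-RFI steers. It was then 19387 in steer 14, 2859 in steer 15 and 5890 in steer 16. Steer 15, the lowest of these, was 3.08-fold above the highest of the other 13 steers. Steer 16 was 2.06-fold above steer 15, and steer 14 was 3.29-fold above steer 16. Steer 14 alone carried 52.1% of the normalized counts of the gene summed over all 16 steers, and steers 14 to 16 together 75.6%. These 3 steers were singled out after their values were seen, and they carry the last 3 numbers in the titles. The labels give no pen, batch or date, so whether these steers shared any is not known here.

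**Figure D1:**
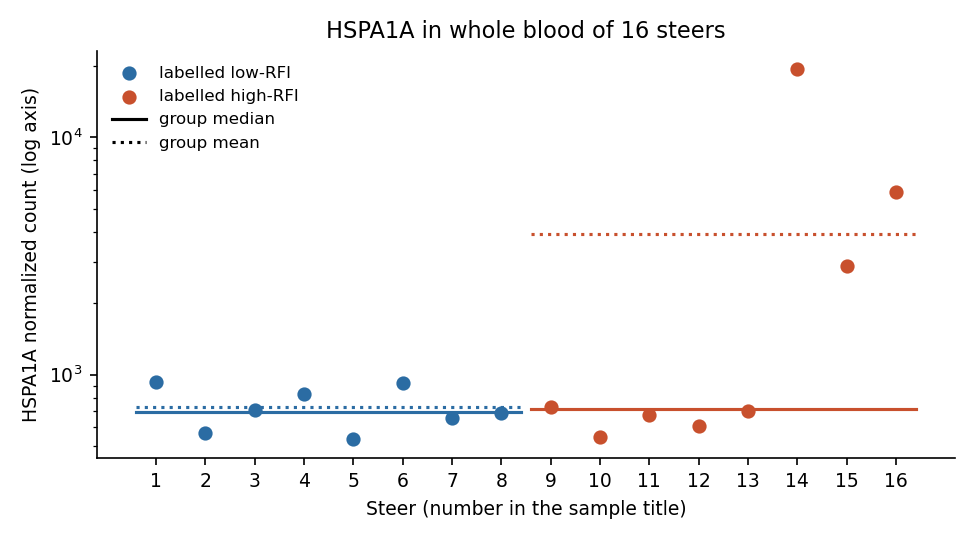
HSPA1A normalized count (log axis) in each of the 16 steers, with the median (solid) and mean (dotted) of each group of 8. The medians, 719 in high-RFI and 699 in low-RFI steers, lie almost on one line, while the high-RFI mean of 3925 is pulled up by steers 14, 15 and 16.

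Counting error was small beside these gaps. The raw count of 16876 in steer 14 had an exact 95% Poisson interval from 16622 to 17133, that of 601 in steer 5 one from 554 to 651. Such intervals cover counting error only. On the per-length scale, HSPA1A had 948 FPKM in steer 14, 288 FPKM in steer 16 and 140 FPKM in steer 15, against 26.1 to 45.5 FPKM in the other 13 steers. The median tested gene stood between 9.75 and 10.1 FPKM in every steer. By FPKM, HSPA1A was thus the 63rd highest gene of steer 14, the 259th of steer 16 and the 511th of steer 15. In the other 13 steers it ranked between 1528 and 3129. It took 0.239% of all counts on genes in steer 14, 0.0652% in steer 16 and 0.0325% in steer 15, against 0.00630% to 0.0121% elsewhere. In whole blood, a change in the share of a cell type and a change of RNA per cell cannot be told apart.

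The 3 steers high in HSPA1A had fewer detected genes than most others, and depths in the lower part of the range. Steers 14, 15 and 16 had 7.08, 7.24 and 7.66 M counts, and 17045, 17006 and 17032 genes with a count. The other 13 steers had 4.80 to 12.2 M counts and 16891 to 17841 genes, of which only steer 4 had fewer genes than these 3. Steer 4, with the fewest counts of all, had 832 normalized counts of HSPA1A, inside the range of the 13, and the part of depth in the level of steers 14 to 16 was not tested further. As the steers fall into separate ranges, correlations were taken within the 13. There, log2 normalized HSPA1A had r = 0.146 with total count (permutation p = 0.639; rho = 0.264, permutation p = 0.381), r = 0.285 with the number of genes detected (permutation p = 0.348; rho = 0.209, permutation p = 0.491) and r = 0.247 with the size factor (permutation p = 0.420; rho = 0.264, permutation p = 0.384). Adjusted over these 6 coefficients, the lowest p was 0.590. Without the 2 steers farthest from the median of each measure, r was 0.421 (permutation p = 0.197), 0.614 (permutation p = 0.0454) and 0.593 (permutation p = 0.0563), none of them adjusted.

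The spread of HSPA1A between steers of a group was among the widest of the tested genes. The biological coefficient of variation, the relative SD between steers that the edgeR fit leaves after counting error, was 0.915 for HSPA1A, and the trend over genes of its level was 0.218. This placed it 68th of 13265 tested genes, and 6th of the 505 tested genes with at least its mean normalized count. That mean, 2327, was known when the gene was chosen. It is raised by steers 14 to 16, the median of the 16 steers being 707, so the place among the 505 is a description only. Without steers 14, 15 and 16 the coefficient was 0.173, close to the trend of 0.163, and the gene ranked 4845th of 13633 tested. In those 13 steers the level was 700 ± 129 normalized counts (SD, n = 13), a coefficient of variation of 18.5%. Outside the 3 high steers, the gene thus lay close to the trend, with a ratio to it of 1.06. By that ratio it ranked 2524th highest of the 13633 genes, so most genes varied less than it did against the trend at their own level.

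**Figure D2:**
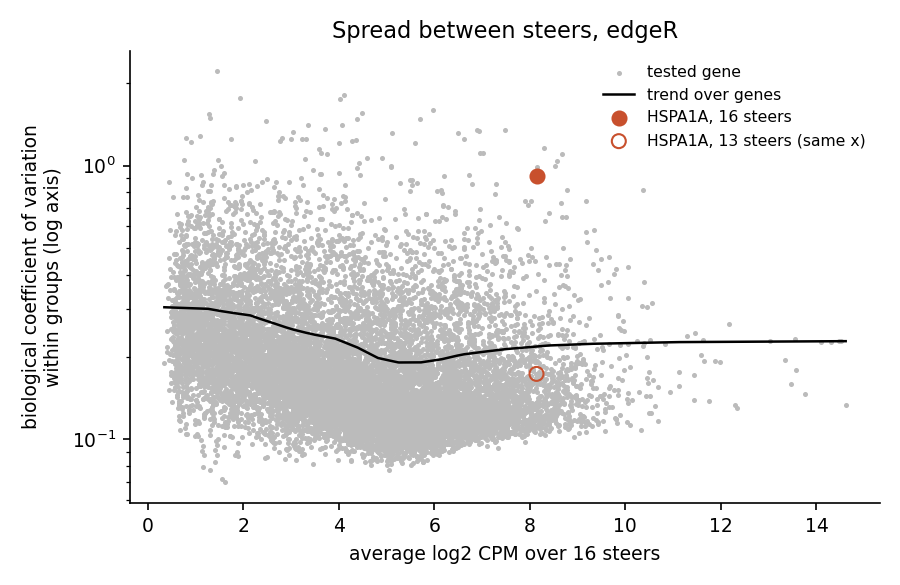
Biological coefficient of variation within groups (log axis) against average log2 CPM for the 13265 tested genes (grey), with the trend over genes (line). HSPA1A lies at 0.915 with all 16 steers (filled) and at 0.173 without steers 14, 15 and 16 (open, drawn at the same horizontal position).

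Between the groups as labelled, the mean was higher in the high-RFI steers and the median was nearly the same. This direction would turn if the names in the study's table of sequenced reads applied. HSPA1A had 3925 ± 6520 normalized counts (SD, n = 8) in high-RFI and 729 ± 151 (SD, n = 8) in low-RFI steers, a 5.38-fold ratio of means. The medians of 719 and 699 gave a ratio of 1.03. Of the 8 high-RFI steers, 3 lay above every low-RFI steer and 5 lay within their range. The edgeR log2 fold change of high-RFI over low-RFI steers was 2.42 with a standard error of 0.75. HSPA1A was not called at FDR 0.05 in edgeR, where 0 of 13265 genes were called (0%) and 693 (5.22%) stood at an unadjusted p under 0.05. Nor was it among the 7 genes that DESeq2 called of 21016 (0.0333%). As this contrast is the one by which the study picked the gene, these calls are given only as background, with no p, and nothing is read from them.

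The size of the difference, and its sign, turned on steers 14 to 16. Leaving out steer 14 took the log2 fold change to 1.22, whereas leaving out any other single steer kept it between 2.31 and 2.58. Without steers 14, 15 and 16 it was -0.16 with a standard error of 0.13, the 5 remaining high-RFI steers having 654 ± 75.5 normalized counts (SD, n = 5). The limma settings gave smaller differences. The difference of mean log2(normalized count + 1) was 1.14 in limma. In limma voom, which works on log values and also weights each steer by its quality, the log2 fold change was 0.40, and the share of either choice in this was not tested. DESeq2 gave 2.43. It did not treat the count of steer 14 as an outlier, since its Cook's distance, a measure of how far 1 count moves a fit, was 3.86 against a threshold of 6.51, and the count entered that fit unaltered.

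**Figure D3:**
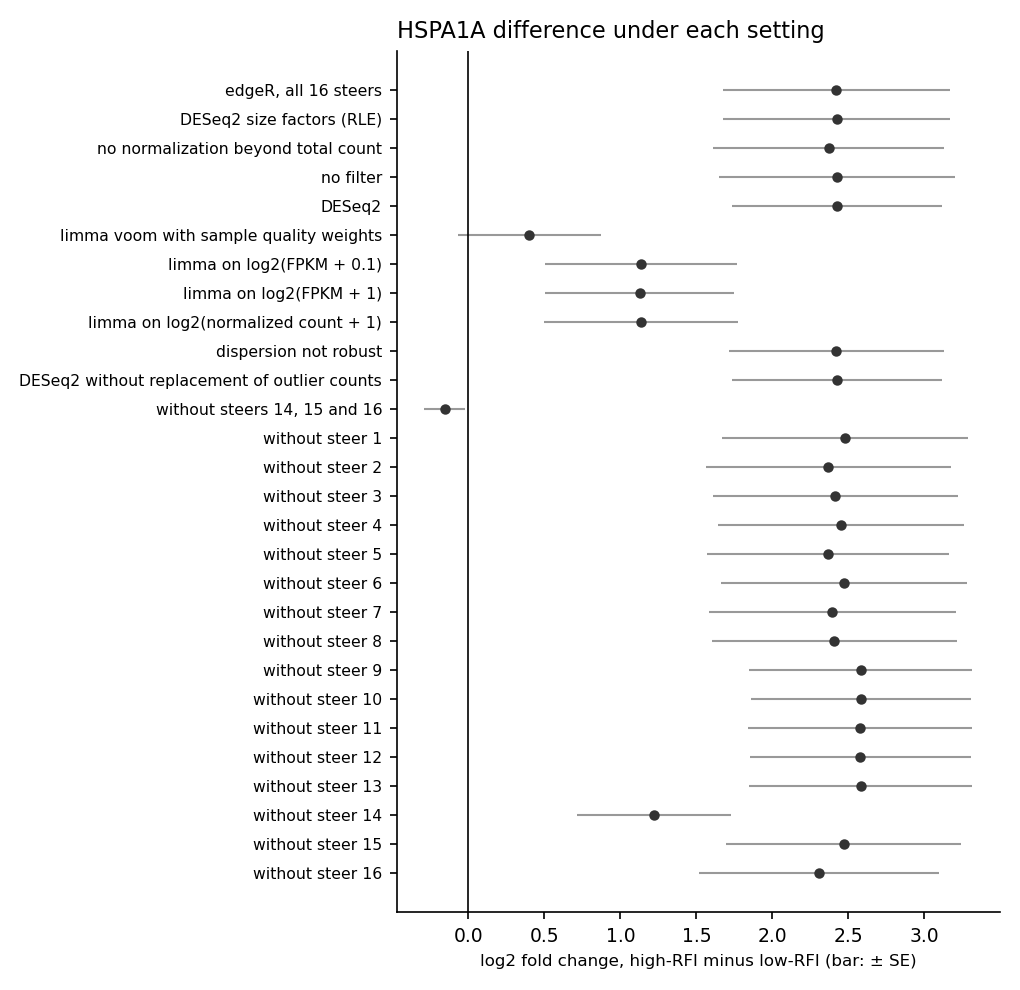
Log2 fold change of HSPA1A, high-RFI minus low-RFI, with its standard error (bars), for all 16 steers in edgeR, for each other setting, and with each steer left out. Most settings lie near 2.42, the limma settings and the fit without steer 14 lie between 0.40 and 1.22, and the fit without steers 14, 15 and 16 lies at -0.16.

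Other genes varied with HSPA1A between steers of the same group. To find them, the log2 CPM of HSPA1A was put as a covariate beside the group in the edgeR fit, so that each gene received a slope, its log2 change per doubling of HSPA1A. Of 13264 genes, 186 (1.4%) were associated at FDR 0.05, of which 133 (1%) rose and 53 (0.4%) fell with HSPA1A. The slopes had a median of 0.19 for the genes that rose and -0.23 for those that fell, and the median absolute slope over all genes was 0.05. Slopes were above 0.5 in 6 of the associated genes and below -0.5 in 2. The steer with the most normalized counts was steer 14 in 104 of the 133 genes that rose, steer 16 in 28 and steer 15 in 1, and in 63 of them these 3 steers held the 3 highest places. The steer with the fewest was steer 14 in 43 of the 53 genes that fell, steer 16 in 9 and steer 15 in 1, with all 3 lowest places in 18. Steers 14, 15 and 16 held the highest HSPA1A levels in the fit that chose these genes. Their places thus follow in part from that choice, and places over all genes fitted were not counted. The genes that rose had a median over genes of 524 mean normalized counts and those that fell 209, against 178 over all genes fitted. A higher count can make a slope easier to call, and its part here was not tested. Their median lengths were 2022 and 2330 bp, against 2367 bp.

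**Figure D4:**
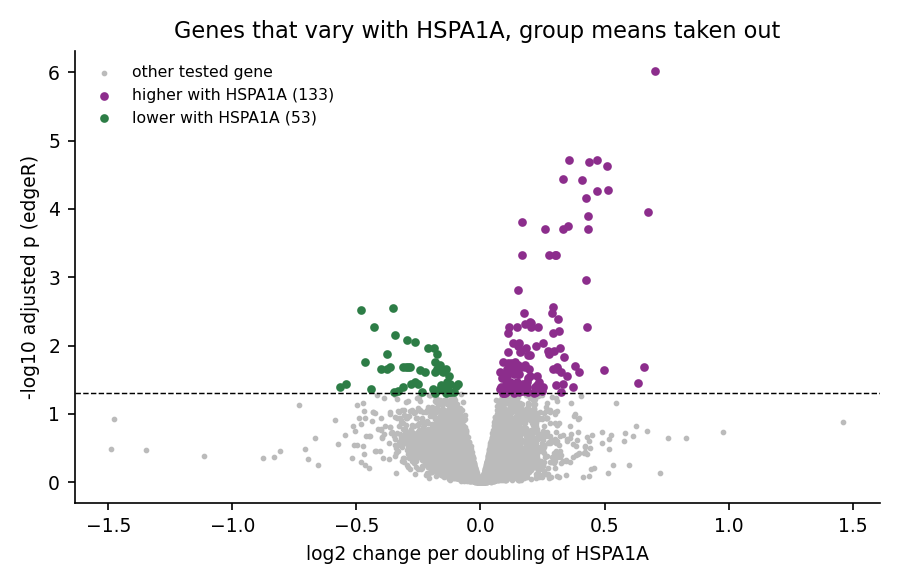
Log2 change per doubling of HSPA1A against -log10 adjusted p from edgeR for 13264 genes, with FDR 0.05 as a dashed line. The 133 genes that rose with HSPA1A include the smallest adjusted p, and the 53 that fell lie closer to the line.

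The calls depended on steers 14 to 16. Without all 3, 0 of 13632 genes passed FDR 0.05 in edgeR, and 835 stood at an unadjusted p under 0.05. With the rank of the steers in place of the log2 level, so that distances between steers no longer counted, 0 genes passed and 1444 stood at an unadjusted p under 0.05. With 1 steer left out at a time, the number was between 72, without steer 11, and 510, without steer 16. It was 78 without steer 12 and 157 without steer 14. The fit without the 3 has fewer steers and a narrow range of HSPA1A. Among the 13 other steers, 162 of the 186 genes (87.1%) had an r with HSPA1A of the same sign as their slope, where the median r over all genes was -0.01. These 13 steers were also part of the fit that chose the genes, so this share is a description and no separate test. The share of the same sign over all genes fitted was not counted, and the median r does not stand in for it.

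The gene most like HSPA1A, by Pearson r of log2(normalized count + 1) over the 16 steers after the group means were taken out, was ENSBTAG00000038124, a gene of 3277 bp. It reached a normalized count of 512 in steer 14, 151 in steer 15 and 165 in steer 16. The low-RFI steers had between 25.9 and 37.4, with a median of 32.1, and the other 5 high-RFI steers between 35.1 and 48.5. The 3 steers high in HSPA1A were thus the 3 highest here too, by a wide margin, though with 15 and 16 close together. Its r was 0.956, its Spearman rho 0.803, and its slope 0.70 ± 0.05 (SE) per doubling of HSPA1A, with an adjusted p of 9.66e-07 from edgeR. Among the 13 other steers r was -0.301 and the slope -0.22, both of the opposite sign.

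The next was ENSBTAG00000033077, a gene of 2082 bp with a far higher level and smaller slope. It reached a normalized count of 2424 in steer 14, 2237 in steer 16 and 1755 in steer 15, the same order as in HSPA1A. The low-RFI steers had between 1294 and 1703, with a median of 1472, and the other 5 high-RFI steers between 1350 and 1524. Its r was 0.947 and its rho 0.956, with a slope of 0.17 ± 0.02 (SE) and an adjusted p of 0.000156 from edgeR. Within the 13 other steers r was still 0.822, while the slope of 0.35 ± 0.11 (SE) had an adjusted p of 0.698 from edgeR. This value is a description, the highest r of any gene among those 13 steers being 0.893.

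Of the genes that ran opposite to HSPA1A, ENSBTAG00000034246 (1828 bp) had the lowest r, -0.919, with a rho of -0.797. Its normalized count was 4.60 in steer 14, from only 4 raw counts, 13.4 in steer 15 and 16.5 in steer 16, below all others. The low-RFI steers had between 19.5 and 29.0, with a median of 23.8, and the other 5 high-RFI steers between 29.6 and 42.3. The slope was -0.48 ± 0.07 (SE), and edgeR gave an adjusted p of 0.00297, or 0.0674 without steer 14. The next, ENSBTAG00000020090 (2144 bp), had r = -0.890, rho = -0.835 and a slope of -0.26 ± 0.05 (SE), and edgeR gave an adjusted p of 0.00880, or 0.139 without steer 14. It had 23.0 normalized counts in steer 14, 46.2 in steer 15 and 49.5 in steer 16, against 54.6 to 85.3 elsewhere. Among the 13 other steers its r was -0.502 and its slope -0.38 ± 0.23 (SE), with an adjusted p of 0.905 from edgeR, while ENSBTAG00000034246 had r = 0.240 there. These 4 genes were chosen for their likeness, so their r and p are descriptions of the extremes among 13264 genes, over which r had a median of 0.00 and 5th and 95th percentiles of -0.58 and 0.61.

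**Figure D5:**
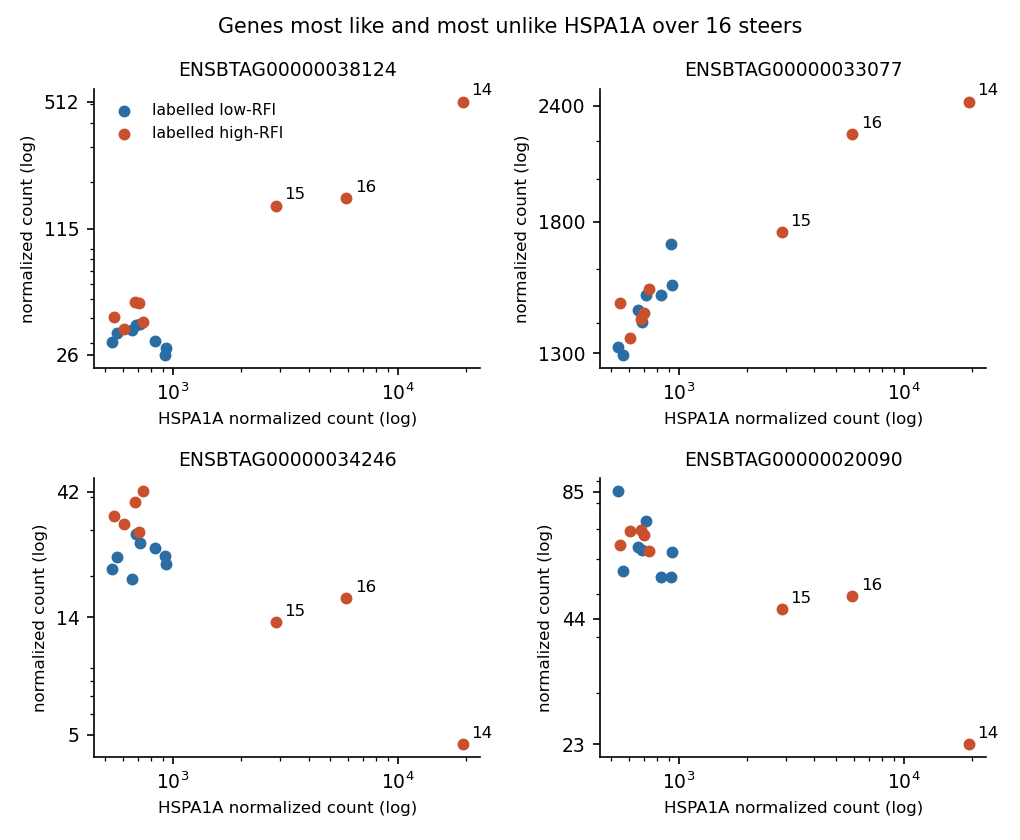
Normalized count of the 2 genes most like HSPA1A (top) and the 2 most unlike it (bottom) against the normalized count of HSPA1A, both on log axes, 1 point per steer. Steers 14, 15 and 16, numbered, hold the 3 highest or 3 lowest values of each gene, with steer 14 the farthest, but in ENSBTAG00000033077 steer 15 (1755) lies close to steer 6 (1703), and in ENSBTAG00000020090 steer 16 (49.5) lies close to the next steer (54.6).

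The number of genes called between the groups changed with HSPA1A as a covariate, with the steers left out and with the method. With its log2 level as a covariate, edgeR called 21 of 13264 genes between the groups at FDR 0.05, all lower in high-RFI steers, against 0 without it. Without steers 14, 15 and 16 it called 26 of 13633 genes, 25 lower and 1 higher. Without steer 14 alone it called 25 of 13388, all lower, and without steer 16 alone 2 of 13389. With no HSPA1A term and all steers kept, limma voom with sample quality weights called 13 of 13265, all lower. DESeq2 called 7 of 21016, 5 lower and 2 higher. The high levels of HSPA1A all lie in the high-RFI group, so the covariate overlaps in part with the group. The part of HSPA1A in these counts was not tested.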

How the data were processed

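The data are whole-blood RNA-seq of 8 high-RFI and 8 low-RFI steers, grouped by their labels. According to the paper, the authors used Trimmomatic 0.39 for trimming, HISAT2 2.2.1 for alignment to the bovine build ARS-UCD1.2 and GenomicAlignments for counting. Not given in the sources used here are the annotation, the use of strand and the handling of marked duplicates and multimapped reads. Whole-number raw counts were deposited by the authors. In the deposited normalized counts, which are a signal, each raw count is divided by the size factor of its steer, 0.622 to 1.46. The deposited FPKM are these divided by gene length and by a constant of 8.27 M, the geometric mean of the total counts. Lengths recovered with it were whole to within 0.001 bp in 100% of genes.

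Raw counts went into edgeR 4.0.16 and its quasi-likelihood test (TMM, filterByExpr, robust dispersion, Benjamini-Hochberg), with the group alone or with the log2 CPM of HSPA1A (prior count 2) added. Standard errors from edgeR are the log2 fold change divided by the square root of F. DESeq2 1.42.0 and limma 3.58.1 (log2 with a pseudocount of 1 or 0.1), in R 4.3.3, gave alternatives. Correlations used two-sided permutation tests (100000 resamples, or all orders for n = 8). The fits were also run on simulated counts with known changes, drawn separately for each gene. The outcome is not given here, and nothing is read from it. The genes named were HSPA1A and the 2 highest and 2 lowest by r. The gene and the tests were chosen with earlier results of these data known, and the exclusion of steers 14, 15 and 16, the rank covariate, the HSPA1A covariate in the group comparison and DESeq2 without outlier replacement were chosen after the values had been seen. Planned lists of heat shock genes and blood cell markers, promoter motifs and protein comparison were not run, since no table used here pairs the identifiers with symbols or holds those sequences. The planned correlations with depth over all 16 steers are given only in the closing section, because the steers fall into separate ranges.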

Additional observations from a re-analysis of the deposited data

Results flagged for a closer look

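In 16 groups of 8 steers, covering the 5 genes named, log2 HSPA1A, total counts and the number of genes with a count, the steer at either end was compared with its neighbour, and in 3 its gap over the range was above Dixon's critical value at the 95% level. Chance gives about 1 such group in 20, a rate that does not apply to the first 2 of them, since HSPA1A was chosen with its level known and ENSBTAG00000038124 for its likeness to it. HSPA1A (ENSBTAG00000025441) reached 19387 normalized counts in steer 14, labelled high-RFI, and 5890 in the steer below it (gap over range 0.716), and on the log2 scale the gap over range was 0.334. The same steer had 512 normalized counts of ENSBTAG00000038124 against 165 in the next (gap over range 0.728). In steer 4, of the low-RFI group, 16891 genes were detected, and 17404 in the steer nearest to it (gap over range 0.54). It also had the lowest total count, 4.80 M.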

How the results depend on the processing

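No paired analysis was possible because the groups share no replicate number. The HSPA1A log2 fold change of 2.42 kept its sign under the 10 other settings that keep 8 steers in each group, from 0.40 to 2.43, and without 1 steer ran from 1.22 to 2.58. It reversed to -0.16 without steers 14, 15 and 16. The 0 genes called between the groups became 7 in DESeq2 with or without replacement of outlier counts, 13 in limma voom with sample quality weights, 21 with HSPA1A as a covariate and 26 without steers 14, 15 and 16, and 0 to 25 without 1 steer. The 186 genes associated with HSPA1A became 287 without the group term, 0 with the rank of the steers, 0 without steers 14, 15 and 16, and 72 to 510 without 1 steer. Those 2 changes to 0 came with the high steers or their distance taken out, and the cause of these and the other changes was not tested. Without steers 14, 15 and 16 the biological coefficient of variation of HSPA1A fell from 0.915 to 0.173, and the slopes of ENSBTAG00000038124 and ENSBTAG00000034246 reversed to -0.22 and 0.17, while those of ENSBTAG00000033077 and ENSBTAG00000020090 went from 0.17 to 0.35 and from -0.26 to -0.38, none of the 4 past FDR 0.05. Over all 16 steers, in separate ranges, HSPA1A had r = -0.250 with total count, -0.528 with genes detected and -0.315 with the size factor, with permutation p of 0.310, 0.0314 and 0.229 and a lowest adjusted p of 0.188, and r = -0.476, -0.692 and -0.511 without the 2 farthest steers (permutation p = 0.0791, 0.00420 and 0.0625). These reversed to 0.146, 0.285 and 0.247 without steers 14, 15 and 16, and the same-name pairings of the read table to 0.479 and 0.0394 without the 2 farthest libraries. Steer 14 stood 27.1-fold to 27.4-fold above the median of the 16 steers on CPM and normalized counts, steer 16 7.41-fold to 8.33-fold and steer 15 3.70-fold to 4.04-fold.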
